A study of Homo sapiens with 18 samples.

Results

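The genes described here encode proteins that break down the matrix around cells, switch on plasminogen, or hold these activities in check. The 10 genes were chosen by symbol out of 55765 symbols counted in RNA sequencing of OVCAR3 cells, an established line of high-grade serous ovarian carcinoma. They were chosen with earlier results of these data known. They were 5 matrix metalloproteinases (MMP1, MMP7, MMP9, MMP10 and MMP13), 3 genes of plasminogen activation (PLAU, PLAT and PLAUR) and 2 inhibitors (SERPINB2 and TIMP1). All 10 were found in both count tables, and none was among the 2055 rows that the second table held in duplicate.

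There were 18 libraries in 2 series that were counted in separate tables, with 3 libraries in each of 6 groups. The first series held cells given non-specific human IgA, cells given non-specific human IgG, and untreated cells. The second held cells given IgA against BDNF, a secreted neurotrophin, cells given IgA against TSPAN7, a tetraspanin of the cell surface, and untreated cells. Each antibody was used at 0.5 µg/mL, and the sample labels give 24 h of incubation for all groups, in medium with little serum, whereas the study's supplementary description gives a shorter incubation. OVCAR3 is 1 cell line in monoculture without stroma or immune cells, the cells of every group were detached with trypsin before RNA extraction, and the specific IgAs came from immortalized B cell clones of tumours. A figure legend of the study calls the libraries of the first series separate experiments. For the second, the study gives only a general statement that its experiments had biological replicates or were independently repeated. No source used here says which applies to these libraries, or whether they came from separate cultures. The p-values there measure the spread between libraries, which may be technical. All comparisons were made within a series.

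Plasminogen is a circulating zymogen that urokinase (PLAU) and tissue plasminogen activator (PLAT) cleave to plasmin, a broad serine protease. The urokinase receptor (PLAUR) is anchored in the cell membrane and holds urokinase at the cell surface, and SERPINB2 (plasminogen activator inhibitor 2) inhibits urokinase. Matrix metalloproteinases are zinc-dependent enzymes made as proenzymes, several of which plasmin can activate, and TIMP1 inhibits most of them once active. In ovarian carcinoma these enzymes are known from studies of invasion and of spread over the peritoneum.

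Libraries of the first series held 27920733 to 42371474 counts each, and libraries of the second 39254350 to 47381836. IgA replicate 3 had 19.1% of its counts on mitochondrial genes, where the other libraries of its series had 5.75% to 8.32%. Several results of non-specific IgA that move with that library are therefore also given without it. All 9 markers of ovarian carcinoma epithelium had over 100 counts in every library, and the 8 leukocyte, 5 fibroblast and 2 endothelial markers had none over 100 in every library of a group. The summed level of each of these other lists was at most 3.16 CPM (counts scaled to depth) in every library. Summed epithelial markers in the first series were 4442 to 5703 CPM with IgA, 4867 to 5974 with IgG and 4838 to 6342 in untreated cells. IgA replicate 3 had the lowest WT1 of that series (24.8 CPM, where the highest library had 149). It was also lowest for EPCAM, CDH1, KRT8 and KRT18, but not for PAX8, MUC16, KRT7 or ESR1. In bulk RNA, fewer cells of a type and less RNA per cell cannot be told apart.

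In GRCh37, 4 of the 5 metalloproteinase genes lie on the minus strand of chromosome 11 within a cluster of 9 MMP genes that spans 435.2 kb. MMP7 lies at 102391239 to 102401481, MMP10 at 102641233 to 102651359, MMP1 at 102660132 to 102668891 and MMP13 at 102813724 to 102826461. The remaining genes of the cluster had few counts in these cells. MMP27 and MMP8 had 0 counts in all libraries, MMP20 at most 3, MMP3 at most 5 and MMP12 at most 7. MMP9 lies on chromosome 20 (44637547 to 44645200), PLAU on chromosome 10 (75668935 to 75677254), PLAUR on chromosome 19 (44150247 to 44174699), PLAT on chromosome 8 (42032236 to 42065227), SERPINB2 on chromosome 18 (61538926 to 61571122) and TIMP1 on chromosome X (47441807 to 47446188). No source used here states a strand setting for the counting. Opposite-strand genes overlap MMP1 and MMP10 (WTAPP1, at most 7 counts), PLAU (C10orf55, 29 to 131 counts) and TIMP1 (SYN1, 8 to 37 counts), and without strand the reads of such a pair cannot be told apart. The pseudogene RN7SL368P overlaps PLAUR on its own strand.

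RefSeq promoter windows of GRCh38.p14, which run from 250 bases before a transcription start to 50 after it, were matched for 6 of the 10 genes (MMP7, MMP10, PLAU with 2 starts, PLAUR, SERPINB2 and TIMP1), and not for MMP1, MMP9, MMP13 and PLAT. The letters of an AP-1 element (TGACTCA or its reverse complement TGAGTCA, which together cover both strands) were searched because AP-1 factors are textbook regulators of metalloproteinase and urokinase system genes. They stood in the MMP7 window, 67 bases before the start, and in the PLAUR window, 186 bases before the start, and in 4.95% of all 35116 windows. The NF-kB motif was in none of the 7 windows of these genes, against 11.3% of all windows. The letters of an ETS element (GAGGAA or AGGAAG on either strand, which overlap each other) were in 5 of the 7, against 44.2% of all windows. The 200 bases before the start are shown for MMP7 and PLAUR, which hold the AP-1 letters, given in capitals, and for MMP10 and PLAU (the downstream start), whose windows do not. These matches describe letters and not binding.

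MMP7 (chr11:102530748-102530947, minus strand): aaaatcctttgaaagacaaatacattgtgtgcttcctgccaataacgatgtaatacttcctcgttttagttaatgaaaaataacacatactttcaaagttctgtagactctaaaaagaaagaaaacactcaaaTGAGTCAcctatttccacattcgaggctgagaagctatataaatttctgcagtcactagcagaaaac

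MMP10 (chr11:102780629-102780828, minus strand): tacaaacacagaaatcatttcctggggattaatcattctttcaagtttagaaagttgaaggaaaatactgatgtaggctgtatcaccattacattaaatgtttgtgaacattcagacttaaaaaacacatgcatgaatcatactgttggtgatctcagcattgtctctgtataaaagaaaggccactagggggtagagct

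PLAUR (chr19:43670170-43670369, minus strand): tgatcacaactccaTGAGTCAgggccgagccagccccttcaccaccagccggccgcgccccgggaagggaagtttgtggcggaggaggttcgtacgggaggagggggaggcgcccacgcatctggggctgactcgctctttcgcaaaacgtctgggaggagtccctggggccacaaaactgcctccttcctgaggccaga

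PLAU (chr10:73910932-73911131, plus strand): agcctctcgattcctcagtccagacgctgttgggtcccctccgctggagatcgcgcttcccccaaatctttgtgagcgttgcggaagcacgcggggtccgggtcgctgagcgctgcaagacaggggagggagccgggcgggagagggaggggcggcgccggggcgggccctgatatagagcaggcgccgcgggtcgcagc

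Per length of transcript, TIMP1 and PLAU had the highest levels of the 10 genes in every group (see the plot of length-corrected levels). In untreated cells of the first series the mean was 47.8 ± 1.72 RPKM (reads per kilobase of exon, scaled to depth, SD, n = 3) for TIMP1 and 47.4 ± 2.28 for PLAU, and their libraries overlapped. MMP1, an interstitial collagenase, followed at 5.58 ± 0.894 RPKM, below PLAU and above PLAT in all libraries. PLAT (1.59 ± 0.032), PLAUR (1.33 ± 0.331), MMP10 (0.801 ± 0.364), MMP7 (0.353 ± 0.179), MMP9 (0.188 ± 0.0769), MMP13 (0.0948 ± 0.0896) and SERPINB2 (0.0227 ± 0.0216) came next, and each of these overlapped its neighbour in the order. In untreated cells of the second series the order was TIMP1 (137 ± 2.27 RPKM), PLAU (40.1 ± 0.397), MMP1 (12.8 ± 0.49), PLAUR (5.01 ± 0.0292), MMP10 (3.54 ± 0.839), PLAT (2.70 ± 0.0731), MMP7 (0.897 ± 0.0214), MMP9 (0.183 ± 0.0964), MMP13 (0.0829 ± 0.0232) and SERPINB2 (0.0261 ± 0.0231). There, the neighbours MMP9 and MMP13 were the pair whose libraries overlapped. Exon lengths came from a newer annotation than the one the authors counted with, and long rare isoforms of PLAUR and PLAT lower their values.

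**Figure D1:**
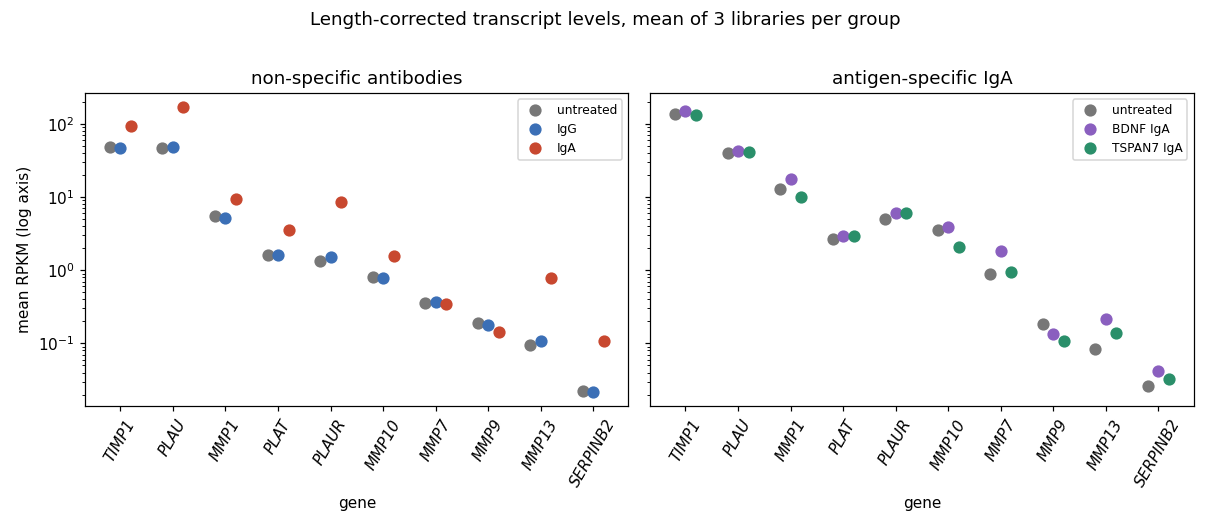
Mean transcript level of each of the 10 genes in each group, in reads per kilobase of exon scaled to depth (RPKM) on a log axis, with 1 point for the mean of 3 libraries, ordered by the untreated cells of the first series. TIMP1 and PLAU are highest in every group, and with non-specific IgA the mean of PLAU (169 RPKM) is above that of TIMP1 (94.9 RPKM).

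The comparison of non-specific IgA with IgG asked whether these transcripts differ with the isotype of an antibody that has no stated target on the cell. Isotype and antibody preparation cannot be told apart in it. With IgA, 5 of the 9 genes tested rose and none fell against IgG, and the same number rose and none fell against untreated cells. These 5 were PLAU, PLAUR, PLAT, TIMP1 and MMP13. MMP13 passed the filter on low counts only through the IgA libraries, which favours a difference, so its call adds no weight to the count. Leaving MMP13 out, 4 of 8 rose and none fell in each comparison. Of all genes tested, 24.2% were called in either direction against IgG and 25.0% against untreated cells (edgeR quasi-likelihood test, Benjamini-Hochberg adjusted p under 0.05 over all genes). The median log2 fold change of the 9 genes was 1.03 against IgG and 0.99 against untreated cells, beside -0.01 and -0.01 over all genes tested, and without MMP13 it was 1.00 and 0.96. Both comparisons use the same 3 IgA libraries. Since the genes were chosen with earlier results of these data known, the counts beside the shares of all genes are a description and not independent support.

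The genes of plasminogen activation rose with IgA in every library. The following values are counts scaled to a common library size within the series, called normalised counts, with replicates 1, 2 and 3 in that order. PLAU, which encodes urokinase, had 5104, 4659 and 5022 normalised counts in untreated cells, 4704, 5215 and 5158 with IgG, and 20370, 14040 and 18220 with IgA. All IgA libraries lay above the other 6, and IgG and untreated libraries overlapped. The change was 3.49-fold against IgG (log2 fold change 1.8, SE 0.13, adjusted p by edgeR = 1.93e-06) and 3.56-fold against untreated cells (1.83, SE 0.13, adjusted p = 1.56e-06).

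PLAUR, the receptor that holds urokinase on the membrane, had 156, 260 and 210 normalised counts in untreated cells, 243, 270 and 194 with IgG, and 1286, 961 and 1782 with IgA. The lowest IgA library was above the highest of the other 6. The rise of 5.67-fold against IgG (log2 fold change 2.5, SE 0.24, adjusted p by edgeR = 2.77e-05) and of 6.40-fold against untreated cells (2.68, SE 0.24, adjusted p = 1.53e-05) exceeded that of PLAU in its point estimate. The difference between the changes of these genes was not tested.

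PLAT, which encodes the tissue-type activator, had 427, 444 and 438 normalised counts in untreated cells, 457, 463 and 422 with IgG, and 1020, 694 and 1224 with IgA. The IgA libraries again stood above all others. PLAT rose 2.18-fold against IgG (log2 fold change 1.13, SE 0.18, adjusted p by edgeR = 0.000805) and 2.24-fold against untreated cells (1.16, SE 0.18, adjusted p = 0.00057). IgA replicate 2 was the lowest of the IgA libraries for PLAU, PLAUR and PLAT. Without IgA replicate 3 the log2 fold changes against IgG were 1.77 for PLAU, 2.25 for PLAUR and 0.93 for PLAT, and all 3 were still called.

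**Figure D2:**
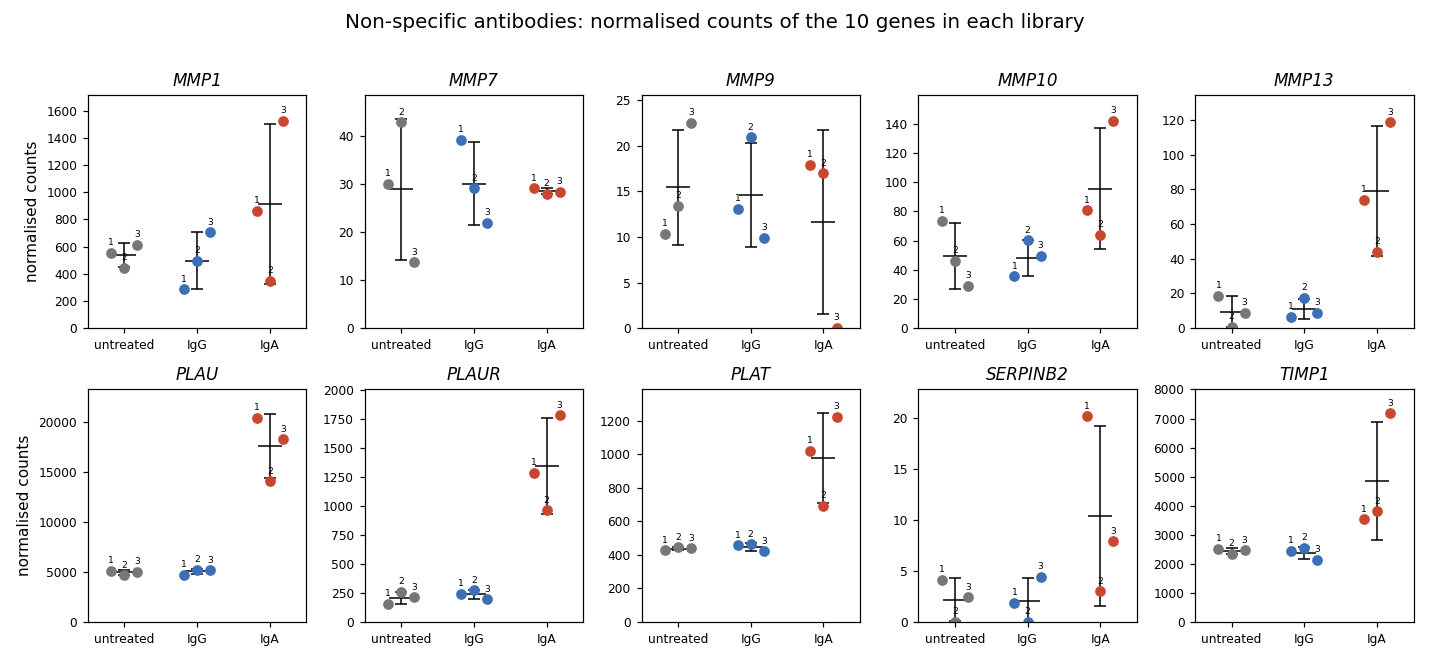
Normalised counts (vertical axes, from 0, scaled separately for each gene) of the 10 genes in untreated, IgG and IgA libraries, with a point per library labelled by its replicate number, and a bar with whiskers for the mean ± SD of 3. For PLAU, PLAUR, PLAT, TIMP1 and MMP13 all IgA points lie above all IgG and untreated points, and for MMP1 the IgA points run from 350 to 1526.

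Of the metalloproteinases, MMP13 was called and the other 4 were not. MMP13, a collagenase, had 18.7, 0.841 and 8.86 normalised counts in untreated cells, 6.53, 17.3 and 8.78 with IgG, and 74.0, 44 and 119 with IgA. No IgA library overlapped the others, but the counts were low, and the gene passed the filter through the IgA libraries, as said above. Its rise was 7.09-fold against IgG (log2 fold change 2.82, SE 0.71, adjusted p by edgeR = 0.0121) and 8.40-fold against untreated cells (3.07, SE 0.72, adjusted p = 0.00824). Without IgG replicate 3 the first was 2.69 and no longer called (adjusted p = 0.0527), and without untreated replicate 1 the second was 3.96. Without IgA replicate 3 they were 2.41 and 2.66 and were still called.

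MMP1 had 556, 445 and 615 normalised counts in untreated cells, 286, 497 and 705 with IgG, and 865, 350 and 1526 with IgA. IgA replicate 2 lay below all untreated libraries, whereas the other IgA libraries lay above all untreated and IgG libraries. The log2 fold change was 0.88 (SE 0.41, adjusted p by edgeR = 0.137, 95% interval -0.01 to 1.76) against IgG and 0.75 (SE 0.41, adjusted p = 0.196) against untreated cells. Without IgA replicate 2 it was 1.26 (adjusted p = 0.0115) and 1.14 (adjusted p = 0.0183). Without IgA replicate 3 it was 0.29 and 0.17 and not called, and the gene was called when no filter on low counts was used, at 0.86 and 0.74.

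MMP10, the stromelysin whose gene is the nearest neighbour of MMP1, had 73.7, 46.2 and 29.0 normalised counts in untreated cells, 35.5, 60.1 and 49.4 with IgG, and 80.7, 64.0 and 142 with IgA. The IgA libraries were above the IgG libraries but overlapped the untreated ones, and the gene was not called (log2 fold change 0.97, SE 0.41, adjusted p by edgeR = 0.1 against IgG, and 0.94, SE 0.41, adjusted p = 0.107 against untreated cells). With IgA replicate 3 left out, the values were 0.58 (adjusted p = 0.304) and 0.55 (adjusted p = 0.324). MMP7 (matrilysin) had 28 to 29.2 normalised counts with IgA, within the range of 13.7 to 42.9 in untreated cells. MMP9 (gelatinase B) had at most 22.6 normalised counts in any library of the series and 0 in IgA replicate 3. For MMP7 the 95% interval against IgG ran from -1.10 to 0.94 and for MMP9 from -1.99 to 1.44, so changes within these bounds are not excluded.

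Of the inhibitors, TIMP1 rose with IgA. It had 2515, 2342 and 2456 normalised counts in untreated cells, 2438, 2547 and 2126 with IgG, and 3531, 3801 and 7181 with IgA. The IgA libraries were above the other 6, while IgG and untreated libraries overlapped, and IgA replicate 3, the library with the high mitochondrial share, was the highest. TIMP1 rose 2.04-fold against IgG (log2 fold change 1.03, SE 0.21, adjusted p by edgeR = 0.00406) and 1.98-fold against untreated cells (0.99, SE 0.21, adjusted p = 0.00484). Without IgA replicate 3 the log2 fold changes were 0.63 (adjusted p = 0.000633) and 0.59 (adjusted p = 0.000876). SERPINB2 was too low to test in either series. Its raw counts were 18, 3 and 5 with IgA, 2, 0 and 4 with IgG, and 4, 0 and 3 in untreated cells, and the groups overlapped.

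With IgG, none of the 9 genes was called against untreated cells, beside 0% of all genes tested (edgeR quasi-likelihood test), and none had an unadjusted p under 0.05. Of all 18012 genes tested, 89 had an unadjusted p under 0.05, a share below 0.05, and DESeq2 also called 0 of the 9. The test was thus conservative in this comparison, and the lack of calls is weak evidence of no change. The fit shares its estimate of the spread with the IgA libraries. In the fit of only the 6 libraries compared, which leaves the IgA libraries out, none of these genes and no other gene was called either. The share of unadjusted p under 0.05 was not taken in that fit, so the part of the shared spread in it was not tested. The log2 fold change was 0.03 for PLAU (95% interval -0.24 to 0.30), 0.18 for PLAUR (-0.34 to 0.69), 0.04 for PLAT (-0.34 to 0.41) and -0.04 for TIMP1 (-0.49 to 0.41). For these genes the intervals of the IgG change end below the point estimates of the IgA change given above. For MMP13 (-1.39 to 1.88), MMP1 (-1.002 to 0.76) and MMP10 (-0.91 to 0.86) the intervals were wider.

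In the second series the comparisons asked what IgA with a defined antigen does to these transcripts in the same cell line. No group there was given a non-specific antibody. Against untreated cells, effects of the antigen target and of IgA itself therefore cannot be told apart. With BDNF IgA, 3 of the 9 genes tested rose against untreated cells and none fell, beside 7.67% of all genes tested called in either direction (edgeR quasi-likelihood test). These were MMP7, MMP1 and PLAUR, and the median log2 fold change of the 9 was 0.15. With TSPAN7 IgA, PLAUR rose and MMP10 fell, beside 8.54% of all genes, and the median was 0.06. Between the antibodies, 4 of the 9 (MMP1, MMP7, MMP10 and TIMP1) were lower under TSPAN7 IgA and none was higher, beside 7.92% of all genes, and the median was -0.31. The first and the second comparison share the untreated libraries, and the third shares the antibody libraries with both.

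MMP7 had 90.2, 86.0 and 88.5 normalised counts in untreated cells, 177, 117 and 239 with BDNF IgA, and 104, 90.6 and 84.5 with TSPAN7 IgA. All BDNF IgA libraries were above all others, and the TSPAN7 IgA and untreated libraries overlapped. MMP7 rose 2.01-fold with BDNF IgA (log2 fold change 1.01, SE 0.20, adjusted p by edgeR = 0.00261), and its log2 fold change with TSPAN7 IgA was 0.08 (SE 0.21, adjusted p = 0.881). The direct difference was -0.93 (SE 0.20, adjusted p = 0.00555) for TSPAN7 IgA against BDNF IgA, and without BDNF IgA replicate 3 it was -0.66 and no longer called (adjusted p = 0.0701).

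MMP1 had 1459, 1555 and 1454 normalised counts in untreated cells, 2569, 1469 and 2187 with BDNF IgA, and 1287, 995 and 1214 with TSPAN7 IgA. BDNF IgA replicate 2 lay among the untreated libraries, and the other BDNF IgA libraries lay above them. The TSPAN7 IgA libraries lay below all of the untreated and BDNF IgA libraries. The log2 fold change was 0.48 with BDNF IgA (SE 0.12, adjusted p by edgeR = 0.0196), -0.35 with TSPAN7 IgA (SE 0.13, adjusted p = 0.0985), and -0.83 (SE 0.13, adjusted p = 0.000345) for TSPAN7 IgA against BDNF IgA. Of these, the last was called under every alternative tried. The rise with BDNF IgA was not called by DESeq2 (0.48, adjusted p = 0.114), nor without BDNF IgA replicate 1 (0.30, adjusted p = 0.166), BDNF IgA replicate 3 (0.44, adjusted p = 0.067), untreated replicate 1 (0.47, adjusted p = 0.0787) or untreated replicate 3 (0.46, adjusted p = 0.0715). The lower level with TSPAN7 IgA was called in the fit of only the 6 libraries compared (-0.35, adjusted p = 0.000477). The same held with no filter on low counts (adjusted p = 2.85e-06), with a replicate block, and without BDNF IgA replicate 1 (adjusted p = 0.0481) or replicate 2 (adjusted p = 0.000947). It stayed uncalled in 7 of 9 fits that left out 1 library and in 6 of 9 other alternatives.

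MMP10 had 221, 336 and 236 normalised counts in untreated cells, 338, 190 and 350 with BDNF IgA, and 161, 160 and 149 with TSPAN7 IgA. The TSPAN7 IgA libraries were below all others, and the BDNF IgA and untreated libraries overlapped. MMP10 fell 1.68-fold with TSPAN7 IgA against untreated cells (log2 fold change -0.75, SE 0.19, adjusted p by edgeR = 0.0144) and was 1.87-fold lower than with BDNF IgA (-0.90, SE 0.19, adjusted p = 0.00472). The call against untreated cells was lost without TSPAN7 IgA replicate 1 (-0.77, adjusted p = 0.0511), replicate 2 (-0.76, adjusted p = 0.0587) or replicate 3 (-0.72, adjusted p = 0.0621), and without untreated replicate 2 (-0.54, adjusted p = 0.117). With BDNF IgA the log2 fold change was 0.15 (SE 0.18, adjusted p = 0.68).

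MMP13 had 10.1, 7.08 and 12.6 normalised counts in untreated cells, 35.4, 15.0 and 26.6 with BDNF IgA, and 18, 9.49 and 22.7 with TSPAN7 IgA. The BDNF IgA libraries were above the untreated ones, but the change was not called (log2 fold change 1.35, SE 0.43, adjusted p by edgeR = 0.0578). It was called without BDNF IgA replicate 2 (1.61, adjusted p = 0.0123) and when no filter on low counts was used (1.35, adjusted p = 0.0246). MMP9 had 5.27 to 27.1 normalised counts over the 9 libraries, and its groups overlapped in every comparison.

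PLAUR had 952, 944 and 942 normalised counts in untreated cells, 1114, 1098 and 1239 with BDNF IgA, and 1177, 1156 and 1088 with TSPAN7 IgA. Every antibody library was above every untreated one, and the 2 antibody groups overlapped. The rise was 1.22-fold with BDNF IgA (log2 fold change 0.28, SE 0.06, adjusted p by edgeR = 0.00695) and 1.21-fold with TSPAN7 IgA (0.27, SE 0.06, adjusted p = 0.00874). The difference between them was -0.01 (95% interval -0.14 to 0.12, adjusted p = 0.936). Without BDNF IgA replicate 3 the rise with BDNF IgA was 0.22 and no longer called (adjusted p = 0.0626).

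PLAU and PLAT, which rose with non-specific IgA in the first series, were not called in the second. PLAU had 5056, 4959 and 5027 normalised counts in untreated cells, 5430, 4944 and 5596 with BDNF IgA, and 5520, 5027 and 5168 with TSPAN7 IgA. The 3 groups overlapped. The log2 fold change was 0.09 (95% interval -0.02 to 0.19) with BDNF IgA and 0.06 (-0.04 to 0.17) with TSPAN7 IgA. For PLAT it was 0.12 (-0.05 to 0.30) and 0.10 (-0.07 to 0.28). The series were counted in separate tables and had their own untreated cells, and the difference between their antibody effects was not tested.

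TIMP1 had 8357, 8577 and 8321 normalised counts in untreated cells, 9651, 8099 and 9938 with BDNF IgA, and 8146, 7815 and 8291 with TSPAN7 IgA. BDNF IgA replicate 2 was below all untreated libraries and the other 2 were above them. The log2 fold change was 0.13 with BDNF IgA (SE 0.06, adjusted p by edgeR = 0.169) and -0.06 with TSPAN7 IgA (SE 0.06, adjusted p = 0.607). Without BDNF IgA replicate 2 the first was 0.22 and called (adjusted p = 0.000812). TIMP1 was 1.14-fold lower under TSPAN7 IgA than under BDNF IgA (-0.19, SE 0.06, adjusted p = 0.0426), a call that was lost in the fit of only the 6 libraries compared (adjusted p = 0.08) and without any 1 of the 9 libraries other than BDNF IgA replicate 2. SERPINB2 had raw counts of 5, 4 and 0 in untreated cells, 6, 2 and 7 with BDNF IgA, and 5, 2 and 4 with TSPAN7 IgA.

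BDNF IgA replicate 2 had the lowest level of the 3 BDNF IgA libraries for all 10 genes. Without it, 5 of the 9 genes were called against untreated cells (MMP1, MMP7, MMP13, PLAUR and TIMP1), and without BDNF IgA replicate 3, 1 was (MMP7). The calls over all genes moved the same way, from 1437 to 2798 without replicate 2 and to 734 without replicate 3. Summed fibroblast markers were 1.91 to 3.16 CPM with BDNF IgA, 1.21 to 1.66 with TSPAN7 IgA and 1.94 to 2.22 in untreated cells. Summed carcinoma epithelial markers were 4283 to 4441 CPM with TSPAN7 IgA, below 4908 to 5879 with BDNF IgA and 4759 to 5139 in untreated cells. In this sum MUC16 weighs most, at 1492 to 2803 CPM over the libraries of the second series, where PAX8 had 415 to 489. Summed leukocyte markers were 1.87 to 2.19 CPM with TSPAN7 IgA, 1.53 to 1.76 with BDNF IgA and 0.834 to 1.94 in untreated cells, and summed endothelial markers 0.401 to 0.788, 0.214 to 0.474 and 0.357 to 0.401. The part of these lists in the results was not tested.

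**Figure D3:**
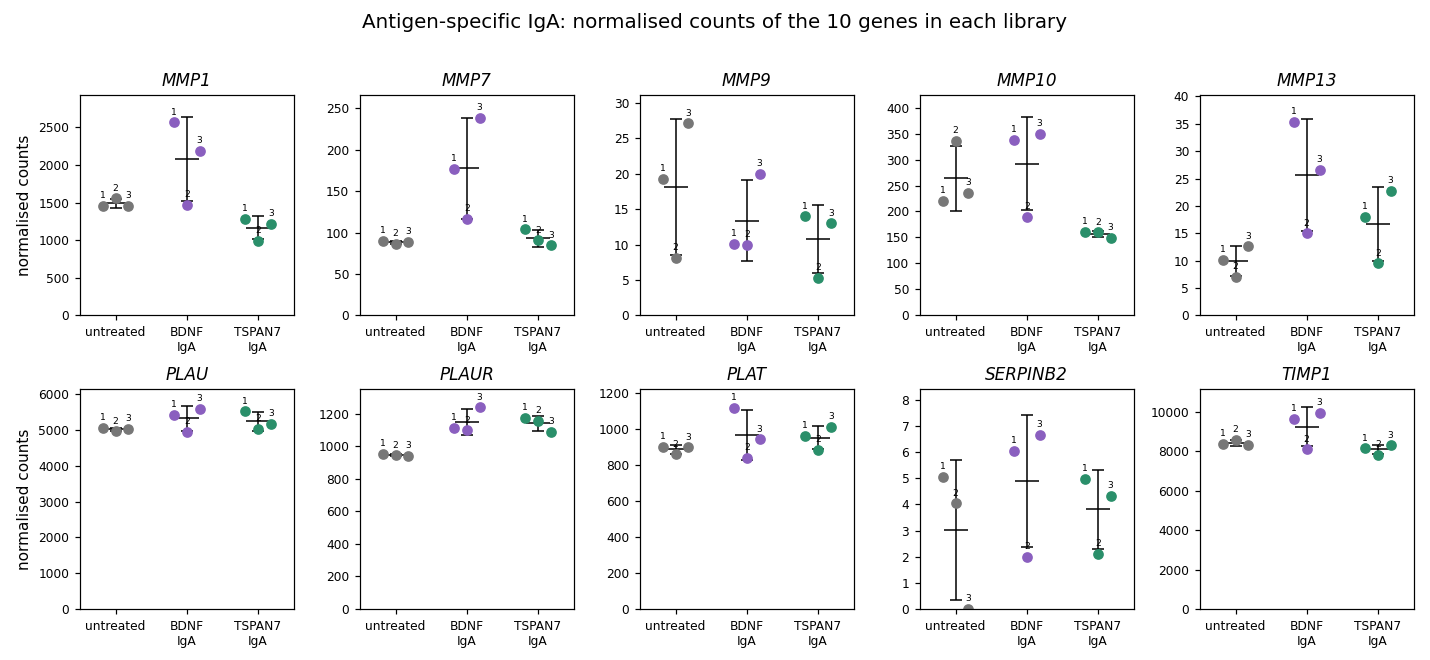
Normalised counts (vertical axes, from 0, scaled separately for each gene) of the 10 genes in untreated, BDNF IgA and TSPAN7 IgA libraries, with a point per library labelled by its replicate number, and a bar with whiskers for the mean ± SD of 3. MMP7 stands apart in all BDNF IgA libraries, MMP1 and MMP10 are lowest in the TSPAN7 IgA libraries, and the PLAU groups overlap between 4944 and 5596.

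**Figure D4:**
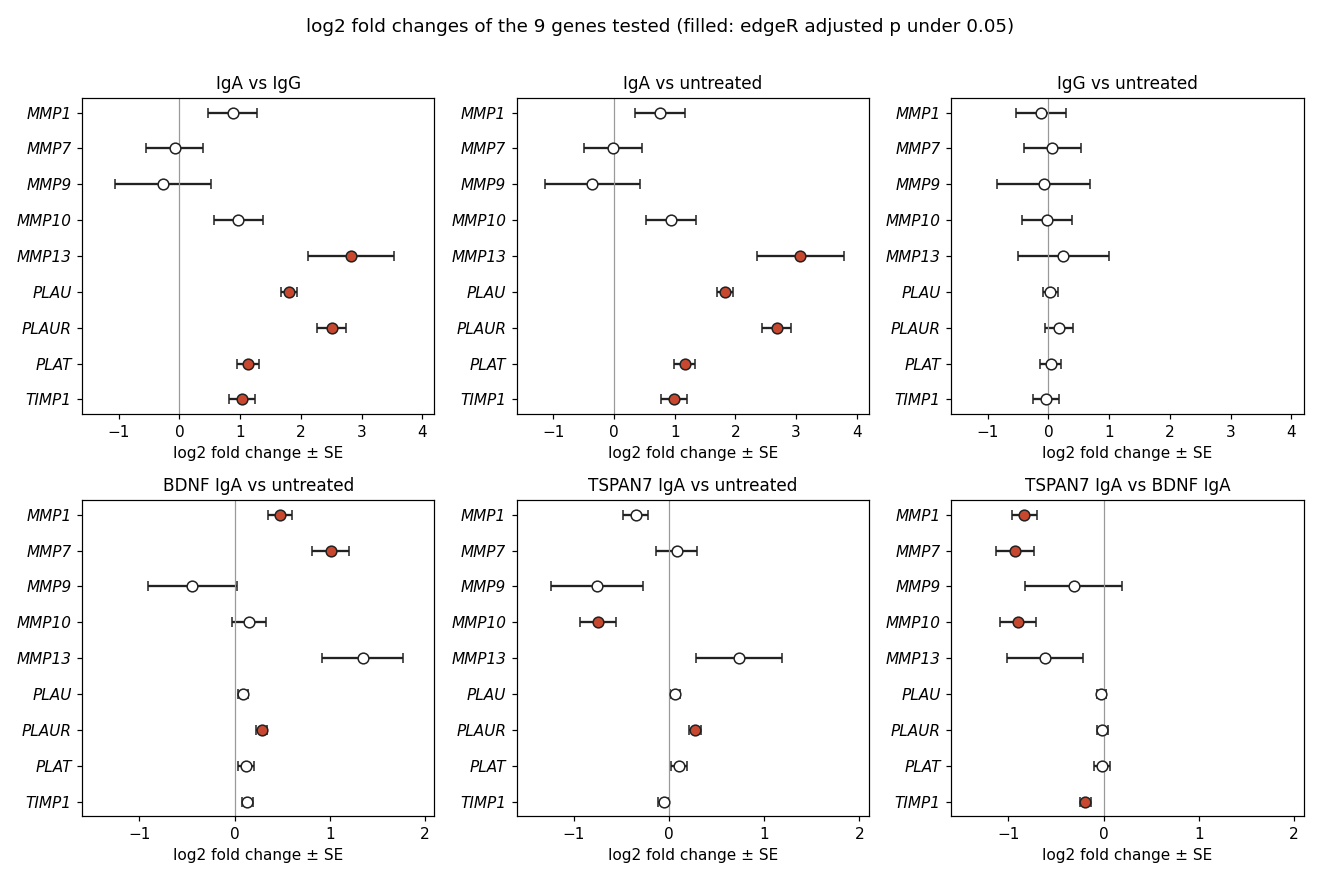
Log2 fold change (horizontal axis, point) and its standard error (whiskers) of the 9 genes tested in each of 6 comparisons, with filled points where the edgeR adjusted p was under 0.05. The called points with non-specific IgA run from 0.99 to 3.07, those with specific IgA against untreated cells from -0.75 to 1.01, and no point is filled for IgG against untreated cells.

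Other genes of the plasminogen system rose with non-specific IgA. Of 10 tested, 8 rose and none fell against IgG, and the same counts held against untreated cells. The median log2 fold changes were 0.54 and 0.62. Of all genes tested, 24.2% and 25.0% were called in either direction. This list and those below were chosen with earlier results of these data known. SERPINE2 (protease nexin 1), a serpin that inhibits urokinase and other serine proteases, had 4170 ± 1520 normalised counts (SD, n = 3) with IgA, 1350 ± 228 with IgG and 1225 ± 117 in untreated cells. Its log2 fold change was 1.62 (SE 0.22, adjusted p by edgeR = 0.000254) against IgG and 1.77 (SE 0.22, adjusted p = 0.000134) against untreated cells. Without IgA replicate 3 these were 1.31 and 1.45 and were still called. SERPINB8, another serpin, rose by a log2 fold change of 1.21 against IgG. The genes called higher with IgA thus included activators, the receptor and inhibitors.

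Over all genes tested, 24.2% were called against IgG and 25.0% against untreated cells. Near these shares, of 9 other metalloproteinase genes tested, 1 rose and 1 fell with non-specific IgA in each comparison. The one that rose, named after its values were seen, was not the same: MMP28 against IgG (log2 fold change 2.70, adjusted p = 0.00802, and adjusted p = 0.132 against untreated cells) and MMP14 against untreated cells (1.58, adjusted p = 0.0389, and adjusted p = 0.483 against IgG). Both had a mean under 50 normalised counts. MMP15, a membrane-type enzyme, had 1842 ± 571 normalised counts with IgA, 2829 ± 469 with IgG and 2862 ± 298 in untreated cells, and fell 1.53-fold against IgG (log2 fold change -0.62, SE 0.20, adjusted p by edgeR = 0.0375). Leaving out IgA replicate 3, the change was -0.38 (adjusted p = 0.0453). Of the 3 other metalloproteinase inhibitors tested (TIMP2, TIMP3 and RECK), TIMP2 rose by 0.27 (adjusted p = 0.0368) and the others were not called. Of 30 other cell-surface and secreted proteases, 5 rose and 5 fell against IgG, beside 24.2% of all genes called in either direction. ADAMTS15 (log2 fold change -1.6) and the kallikrein KLK8 (-1.02) were lower, and ADAMTS9 (1.25) was higher. Leaving out IgA replicate 3, these were -1.37, -0.89 and 0.84, and all were still called.

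Matrix proteins and proteoglycans, the substrates of these enzymes, were higher with IgA in 16 of 23 genes tested and lower in 2 against IgG. Against untreated cells 14 were higher and 1 was lower. Of all genes tested, 24.2% and 25.0% were called in these comparisons, in either direction. The median log2 fold change of the 23 matrix genes was 0.82 in both comparisons. SDC4, a cell-surface proteoglycan, had 11550 ± 1590 normalised counts with IgA and 2176 ± 108 with IgG (log2 fold change 2.41, SE 0.12, adjusted p by edgeR = 7.02e-08). The laminin chain LAMB3, of the epithelial basement membrane, rose by 1.76, and by 1.45 without IgA replicate 3. Without IgA replicate 3, the count of other plasminogen system genes called higher was 8, the other proteases came to 6 up and 6 down, and the matrix genes to 13 up and 3 down, all against IgG. Calls over all genes against IgG then went from 4360 to 4796. With IgG, no gene of these lists was called against untreated cells, beside 0% of all genes.

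The same lists were counted in the second series. Of all genes tested, 7.67% were called with BDNF IgA, 8.54% with TSPAN7 IgA and 7.92% between these antibodies, in either direction. Of 10 other plasminogen system genes, 2 rose and 1 fell with BDNF IgA, and 2 rose and none fell with TSPAN7 IgA. LRP1, the endocytic receptor that clears activator and inhibitor complexes, rose by 0.39 with BDNF IgA and differed by -0.55 for TSPAN7 IgA against BDNF IgA (adjusted p = 0.000229). All 3 other metalloproteinase inhibitors rose with BDNF IgA, and TIMP2 (0.29 with each antibody) and RECK (0.34 and 0.32) rose with both antibodies.

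Among 9 other MMP genes, 2 rose and 1 fell with BDNF IgA, and none was called with TSPAN7 IgA. For this list and those below, the shares over all genes were again 7.67%, 8.54% and, between the antibodies, 7.92%. MMP2 (gelatinase A) had 1342 ± 179 normalised counts with BDNF IgA, 983.1 ± 97.5 with TSPAN7 IgA and 1069 ± 43.6 in untreated cells, and its log2 difference between the antibodies was -0.45 (SE 0.08, adjusted p by edgeR = 0.00218). Of 31 other proteases, 6 rose and 1 fell with BDNF IgA, 6 rose and 2 fell with TSPAN7 IgA, and 1 was higher and 7 were lower under TSPAN7 IgA than under BDNF IgA. The lysosomal protease CTSS rose with BDNF IgA (0.75) and with TSPAN7 IgA (0.49), and the kallikrein KLK7 rose with BDNF IgA (0.75). Of 23 matrix genes, 6 rose and none fell with BDNF IgA, and 8 rose and 1 fell with TSPAN7 IgA. FN1, which encodes fibronectin, had 6903 ± 867 normalised counts with BDNF IgA, 5291 ± 352 with TSPAN7 IgA and 3905 ± 182 in untreated cells, and was called in all 3 comparisons (log2 fold changes of 0.82, 0.44 and -0.38 for BDNF IgA, TSPAN7 IgA and their difference). Without BDNF IgA replicate 2, the matrix genes called came to 12 up and none down with BDNF IgA against untreated cells, the other proteases to 10 up and 2 down, the other plasminogen system genes to 3 up and 2 down, and the other MMP genes to 3 up and 2 down. Between the antibodies the other proteases then came to 2 higher and 11 lower under TSPAN7 IgA. Calls over all genes went from 1437 to 2798 with BDNF IgA and from 1484 to 3276 between the antibodies.

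Likeness to other genes was measured for the 6 genes with a mean of at least 50 normalised counts in some group of each series, as the root mean square difference of centred log2 CPM over all 18 libraries, where 0 is an identical pattern. The genes nearest to PLAU were PIM3 (0.12), CD55 (0.14) and LARP6 (0.16), against a median of 0.81 over the 17547 other genes. Those nearest to PLAUR were NFKBIA (0.20), SDC4 (0.23) and HSPA5 (0.23), and those nearest to PLAT were SNX9 (0.10), SBNO2 (0.11) and OPTN (0.13). TIMP1 was nearest to PPP1R18 (0.12), APOL1 (0.13) and COL7A1 (0.13). MMP1 was nearest to MUC16 (0.30), CREBRF (0.32) and GRB7 (0.32), and MMP10 to FIBCD1 (0.32), PCDHGA10 (0.34) and PNRC1 (0.34). The medians over all other genes were 1.16 for PLAUR, 0.57 for PLAT, 0.51 for TIMP1, 0.63 for MMP1 and 0.67 for MMP10. The measure includes IgA replicate 3, the highest library of the first series for TIMP1, and was not taken without it. No member of the set was among the 3 genes nearest to another.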

How the data were processed

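RNA of 18 OVCAR3 samples was sequenced as paired-end libraries from an FFPE RNA kit. The authors trimmed reads with cutadapt (1.8.1 per the labels), mapped them with STAR to GRCh37 and assigned them to genes with featureCounts, whereas the labels' processing notes name HTSeq 0.6.1 as well as bcl2fastq 2.20.0.422. The deposited values are raw counts per gene, with no normalization, in 1 table per series. The strand setting was not stated.

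From the counts of the second series, 2055 exact duplicates were removed. Counts were filtered with filterByExpr (minimum count 10), scaled by TMM and tested in edgeR 4.0.16 (R 4.3.3) with a two-sided quasi-likelihood test, all 9 libraries of a series in 1 fit. The Benjamini-Hochberg adjustment covered 18012 genes (first series) or 18732 genes (second), and genes were called at adjusted p under 0.05. Standard errors are the log2 fold change over the root of F. The script was tested on simulated data. For normalised counts, each library was brought to the average effective size of its series, 35244844 or 42392130. Depth was 27920733 to 47381836 counts per library, and limits from counts cover counting error only.

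Groups and replicate numbers came from the sample titles. The 10 genes and the lists were chosen with earlier results of these data known. All 10 were named, and of each list the 3 called genes with the largest change and at least 50 mean normalised counts in 1 of the compared groups. From these the text gives the leading examples. Some of them are not reported here. Gene positions and exon lengths came from GENCODE annotation of GRCh37, promoters from RefSeq. Alternatives were DESeq2 1.42.0, other scalings and filters, fits without mitochondrial and ribosomal RNA genes, fits of only the 6 libraries compared, a replicate block, keeping duplicate rows, and leaving out each library in turn. Counts of the lists without IgA replicate 3 or BDNF IgA replicate 2 were added after the data were seen.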

Additional observations from a re-analysis of the deposited data

How the results depend on the processing

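Of 19 called changes of these genes, 13 were called under every alternative run and 6 were lost under at least 1, as given above. Of 932 recomputed values, 869 kept direction and side of the threshold, 21 lost and 13 gained the call, and 29 changed sign, none of which was called. Where a cause is not given by the alternative itself, the cause was not tested. Scaling by library size alone moved the median of all genes with non-specific IgA from -0.01 to -0.25 against IgG and to -0.22 against untreated cells, and no call on the 5 genes that rose with IgA was lost.

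Leaving out 1 library changed the number of the 9 genes called to between 1 and 5 for BDNF IgA, 1 and 3 for TSPAN7 IgA, and 2 and 4 between these antibodies. Over all genes it gave 2566 to 5286 calls for IgA against IgG, 2601 to 5229 for IgA against untreated cells, 734 to 2798 for BDNF IgA, 757 to 2304 for TSPAN7 IgA and 482 to 3276 for TSPAN7 IgA against BDNF IgA. Without a filter on low counts, 2 genes were called for IgG against untreated cells.

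Leaving out 1 library also turned the sign of log2 fold changes that were not called. For IgA against IgG, MMP7 ran from -0.26 to 0.15 and MMP9 from -0.66 to 0.24. For IgA against untreated cells, MMP7 ran from -0.36 to 0.39 and MMP9 from -0.74 to 0.16. For IgG against untreated cells, MMP1 ran from -0.46 to 0.16, MMP7 from -0.28 to 0.47, MMP9 from -0.43 to 0.29, MMP10 from -0.31 to 0.36, MMP13 from -0.31 to 1.14, PLAU from -0.0104 to 0.0744 and TIMP1 from -0.0942 to 0.033. MMP10 with BDNF IgA ran from -0.0031 to 0.38 and MMP7 with TSPAN7 IgA from -0.0116 to 0.143. For TSPAN7 IgA against BDNF IgA, MMP9 ran from -0.55 to 0.10, PLAU from -0.0722 to 0.0147, PLAUR from -0.0434 to 0.0457 and PLAT from -0.11 to 0.0969.

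Same-numbered libraries correlated between -0.07 and 0.25, over 0.1 in 1 of 18 pairs. Libraries of different numbers were not compared in this way, so whether the numbers pair the samples is not settled. With the replicate block, MMP7 with IgA against untreated cells was 0.0682, MMP13 with BDNF IgA was called (1.34, adjusted p = 0.034, edgeR) and MMP1 with TSPAN7 IgA was called (-0.37, adjusted p = 0.0247), and no call on these genes was lost. SERPINB2, MMP9 and MMP13 rest on low counts.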
